A study of Mus musculus with 16 samples.

Results

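The collagen gene family was followed through 16 mouse bone marrow libraries, made from sorted cells of 2 kinds, mesenchymal stem cells (MSCs) and osteoblasts (OBs). Members were all rows of the deposited table whose symbol has the form Col, a number, the letter a and a number. This rule used no measured value and found 44 of the 20056 symbols in the table. By protein class they are 8 fibrillar genes, 7 genes of cartilage collagens, 9 of basement membranes and adjoining layers, 6 of type VI, 6 of the fibril-associated collagens with interrupted triple helices (FACIT), 4 of transmembrane collagens and 4 others. Poly(A) RNA was sequenced from both sorts of 4 wild-type mice and of 4 miR-9-1-deficient mice made by CRISPR/Cas9 editing. The labels call the groups Wild-type or miR-9-1-deficient, and give neither the age, sex nor strain of the animals nor the sort gate. They name no promoter or cell type that would restrict the deletion. The series asked how miR-9-1 acts in the marrow niche of lymphocyte formation, and each group holds 4 libraries. Wild-type mice are called A, B, C and D here and deficient mice E, F, G and H, and a letter names the MSC and the OB library with the same animal number.

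Collagens are secreted proteins whose chains wind in threes into a triple helix. Fibrillar collagens carry the tension of bone, tendon and skin, type II with types IX and XI forms the thinner fibrils of cartilage, type X marks hypertrophic cartilage, type IV forms the sheet of basement membranes, and type VI forms beaded microfilaments around cells. FACITs sit on the surface of fibrils, and transmembrane collagens are anchored in the cell membrane. In bone, osteoblasts and marrow stromal cells lay down type I collagen, and chondrocytes of the growth plate lay down types II, IX, X and XI. MicroRNAs such as miR-9 bind mainly 3′ untranslated regions (UTRs) through a short seed at their 5′ end and lower the output of the messenger RNA.

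Depth ran from 10148197 to 14246986 reads in the MSC libraries and from 15543693 to 18962771 in those of OBs. Values are the deposited normalized counts unless another unit is named, and a gene with 0 reads in a library could hold up to 3, worth 3.52 to 4.51 in MSC and 1.95 to 2.36 in OB libraries (counting error only). The Mir9-1 symbol had 0 reads in all 8 MSC libraries, 7, 16, 0 and 4 in wild-type OBs A to D and 0, 3, 0 and 0 in deficient OBs E to H, so poly(A) libraries did not check the genotype. All 8 OB libraries held both Xist (3719.5 to 8053) and the Y-linked Ddx3y (649 to 1939), so an OB library may hold cells of more than 1 mouse, and p-values then measure only the spread between these libraries. MSC libraries A, E and F, 1 wild-type and 2 deficient, had Xist at 291 to 392 and Ddx3y at 1848 to 3355, and the other 5 had 11937 to 14158 and 29.8 to 78.1, so the genotypes are unequal in these genes too. The OB label went with no higher level of osteoblast markers: the mean log2 level of 10 osteoblast genes was 8.02 to 8.31 in wild-type MSCs and 7.51 to 8.33 in wild-type OBs, and the summed level 29307 to 38769 and 8811 to 13063, with the osteocyte genes Mepe and Sost at 0 in all 4 wild-type MSC libraries. Markers of blood progenitors were higher in OB libraries (11.27 to 11.67 in wild-type OBs, 9.40 to 10.33 in wild-type MSCs). Some libraries stood apart. Wild-type MSC D had 10 cartilage markers other than collagens at a mean log2 level of 12.27, against 10.33 to 10.88 in MSC libraries A to C. Deficient MSCs G and H had skeletal muscle genes at 6.22 and 7.87, against 4.07 and 4.53 in E and F and 3.06 to 5.14 in wild-type MSCs. These muscle genes held 0.0101% of reads in G and 0.0413% in H. Deficient OBs E and F had MSC stroma genes at 10.52 and 10.87, against 8.18 to 9.21 in wild-type OBs. In bulk libraries, fewer cells of a type and less RNA per cell cannot be told apart.

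Collagen genes took a large part of the MSC libraries and a smaller part in both deficient groups. In wild-type MSCs A to D they held 14.5, 12.2, 12.1 and 15.0% of all reads (13.5 ± 1.51%, SD, n = 4), and in deficient MSCs E to H 5.09, 8.65, 8.71 and 4.80% (6.81 ± 2.16%). Wild-type OBs held 6.39, 5.13, 3.16 and 5.80% (5.12 ± 1.40%) and deficient OBs 1.69, 1.91, 1.76 and 0.609% (1.49 ± 0.597%). Every deficient library lay below every wild-type library of its sort, and OBs lay below MSCs of the same genotype by more than the spread of either group. These shares are a description, with no test, and the shares of all genes in a library are tied to each other by their sum. Fibrillar genes made up 76.6 ± 5.63% of collagen reads in wild-type MSCs and 47.7 ± 11.4% in wild-type OBs. Cartilage collagens made up 5.93 ± 5.22% and 43.9 ± 11.8%, so that wild-type OBs had nearly as many cartilage as fibrillar collagen reads by group mean. The libraries were split. Cartilage exceeded fibrillar reads in OBs A (3.34 against 2.59% of all reads) and D (3.15 against 2.20%), and was below them in B (1.47 against 3.24%) and C (1.28 against 1.55%). Within the falling total, the FACIT part was larger in deficient libraries: 6.87 ± 1.20% of collagen reads in wild-type and 17.3 ± 5.11% in deficient MSCs, and 3.03 ± 0.690% and 14.4 ± 3.27% in the OB groups. Most of it was Col12a1, with 4.14 to 6.56% against 10.4 to 20.7% in MSCs and 1.60 to 2.67% against 8.54 to 15.8% in OBs, ranges that do not overlap in either sort. The basement membrane part was also larger in deficient OBs (wild-type 0.918 to 1.76%, deficient 2.92 to 8.37%). In MSCs that part overlapped (1.57 to 2.07% and 1.82 to 4.96%). The type VI part was larger in deficient OBs too (3.30 to 4.28% and 4.37 to 7.16%), and overlapped in MSCs. The stacked bars of collagen reads show the total and its classes for each library.

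**Figure D1:**
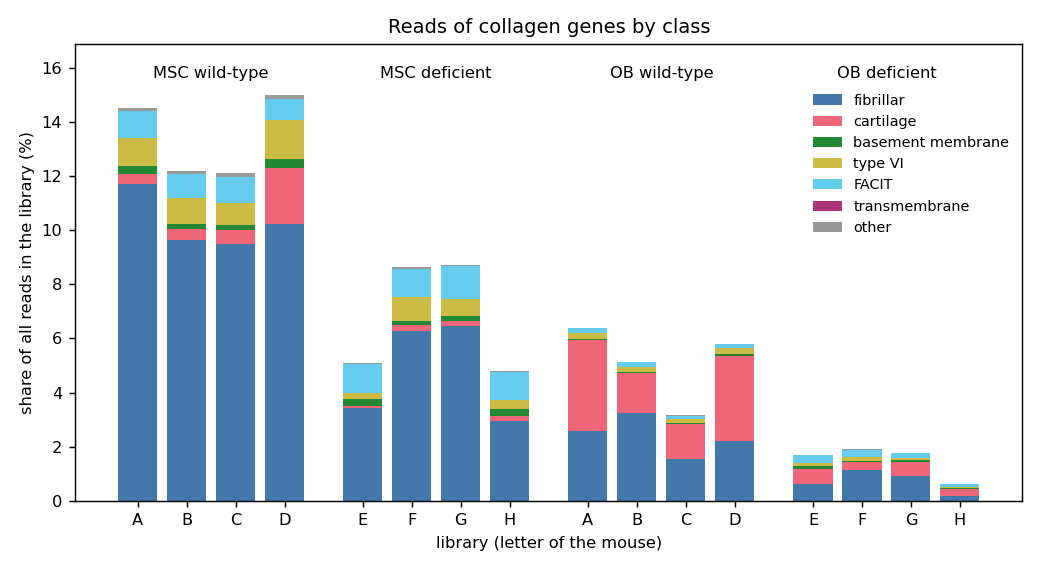
Share of all reads of a library that fell on collagen genes (y axis, %), stacked by class, for each of the 16 libraries (x axis, letter of the mouse). Wild-type MSC bars reach 12.1 to 15.0%, deficient MSC bars 4.80 to 8.71%, wild-type OB bars 3.16 to 6.39% and deficient OB bars 0.609 to 1.91%, and the red cartilage part is widest in wild-type OBs and in wild-type MSC D.

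Gene by gene, deficient MSCs were compared with wild-type MSCs by limma on log2(normalized count + 1), a scale on which the changes of low genes are understated. All 44 members had enough signal to be tested in MSCs. At a Benjamini-Hochberg adjusted p under 0.05 over all 14964 genes tested, 2 were lower in deficient MSCs, Col15a1 and Col8a1, and 0 were higher, where 0.561% of all genes were lower and 0.501% higher. The median log2 fold change was -1.24 over the members and -0.03 over all genes. The mean was lower in deficient MSCs for 36 of the 44, 24 had an unadjusted p under 0.05 (22.8% of all genes did), and for 15 every deficient library lay below every wild-type one (6.1% of all genes did so). Only Col12a1 lay wholly above (6.3% of all genes). The count depended most on deficient library F: without it 20 members were lower (8.26% of all genes), without A 1 was (0.0406%), and without any 1 of the other 6 libraries 0 were (0 to 0.0541%). DESeq2 on recovered reads called 15 lower (3.39% of all genes) and edgeR 1 (0.401%). With quantile normalization 5 were lower (0.675%) and with all 16 libraries in 1 fit 12 (7.59%). Without deficient libraries G and H together, which leaves 2 deficient libraries, 0 passed. The share of all genes called lower was already 0% without G alone and 0.00679% without H alone. In the 5 libraries high in Xist alone (B, C and D against G and H, chosen after seeing the data) 5 were lower, Col8a1, Col8a2, Col11a1, Col13a1 and Col15a1 (1.87% of all genes).

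In OBs, 40 members were tested and 0 passed limma's adjusted p under 0.05 in either direction, where 4 of the 14229 genes tested did (0.0211% higher and 0.00703% lower). The 4 not tested were Col6a4, Col6a6, Col17a1 and Col19a1, all with few reads. The median log2 fold change of the tested members was -1.04, against -0.02 over all genes, and 22 had an unadjusted p under 0.05 (8.95% of all genes did). Means were lower in deficient OBs for 34 of all 44 members. For 14 of the members every deficient OB library lay below every wild-type one (2.99% of all genes tested did so), and for 0 above (2.47% of all genes). DESeq2 called 12 lower (0.555% of all genes), edgeR 0 (0.00703%), limma after quantile normalization 0 (0.0492%) and limma with all 16 libraries 1, Col11a1 (0.0633%). Without the stroma-rich libraries E and F 12 were lower (0.512% of all genes), without E alone 2 (0.0497%), without F alone 3 (0.17%) and without H alone 5 (0.149%). The genotype effect in OBs minus that in MSCs differed for 0 of 44 members in a limma model of all 16 libraries, where 0.0129% of all genes passed. edgeR and DESeq2 also gave 0 there (0.00643% and 0.913% of all genes), and 2 of 44 had an unadjusted p under 0.05, Col19a1 and Col23a1, a smaller share than the 11.5% of all genes. The plot of log2 fold changes by class shows both sorts side by side.

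**Figure D2:**
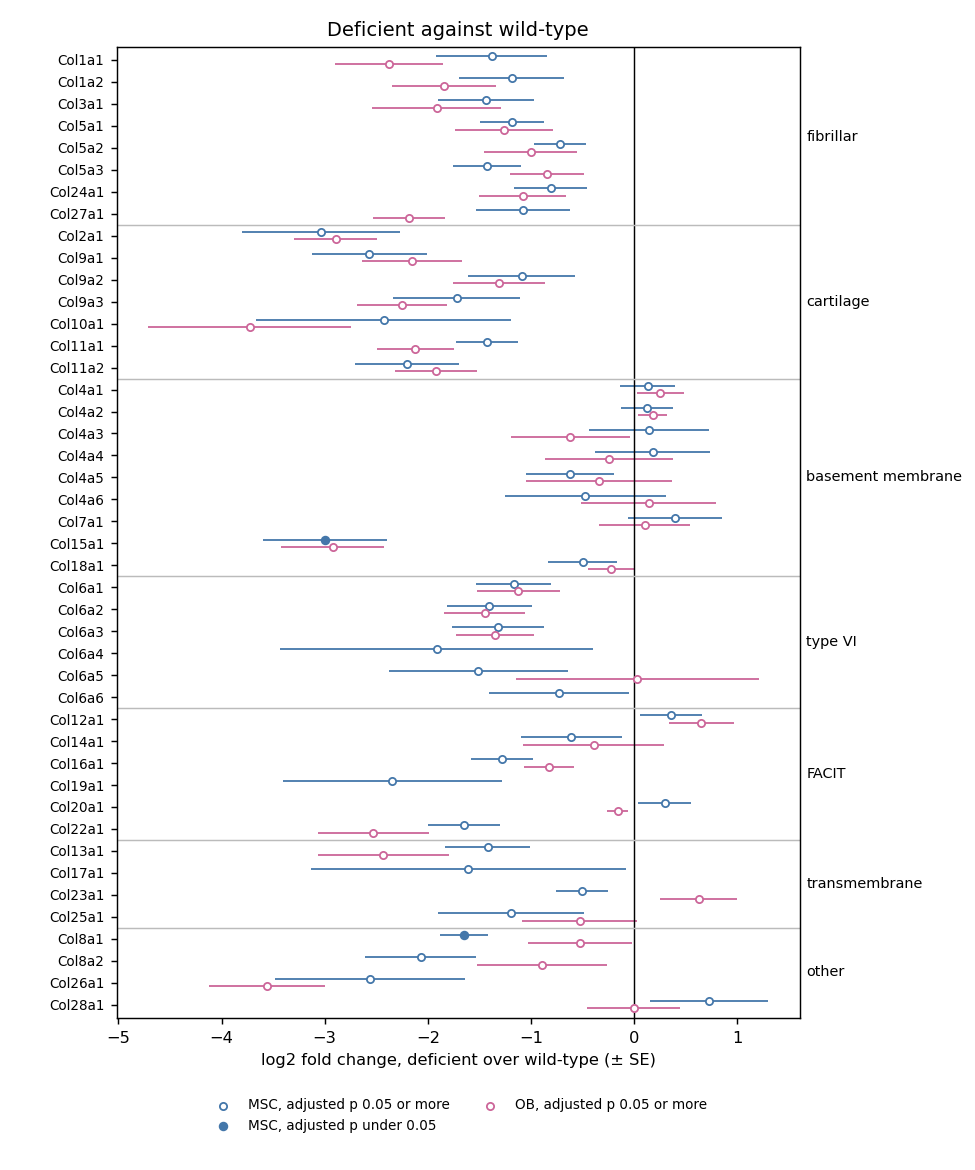
Log2 fold change of each collagen gene, deficient over wild-type (x axis), in MSCs (blue) and OBs (pink), with bars of 1 SE from limma, ordered by class. Filled points have an adjusted p under 0.05, which only Col15a1 and Col8a1 in MSCs do, and most points of the fibrillar, cartilage and type VI classes lie left of 0 in both sorts.

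Wild-type OBs were then compared with wild-type MSCs, a comparison that shares its libraries with the controls of both genotype comparisons. Of 42 members tested (Col6a4 and Col19a1 had too few reads), 30 were lower in OBs and 7 higher at limma's adjusted p under 0.05, where 35.5% of all genes were lower and 34.4% higher. The median log2 fold change was -2.52 over the members and 0.01 over all genes. The 30 lower genes include 7 of 8 fibrillar genes, all 9 of basement membranes and all 5 tested of type VI, and 6 of the 7 higher genes are cartilage collagens. All 4 wild-type OB libraries lay below all 4 MSC libraries for 29 members (32.9% of all genes) and above for Col9a1 and Col20a1 only (32.6% of all genes). edgeR and DESeq2 on recovered reads called 3 higher, Col9a1, Col9a3 and Col20a1 (34.8% and 34.6% of all genes). The 5 tested members that did not pass were Col27a1, Col11a1, Col22a1, Col25a1 and Col26a1. The count of 7 higher depended on single libraries: it was 3 without MSC A or OB A and 4 without MSC B, MSC C or OB D. After quantile normalization 34 passed, 8 of them higher, and the sizes moved: Col3a1 went from -4.23 to -2.64, Col5a1 from -3.74 to -2.78 and Col6a1 from -3.02 to -2.01, while Col2a1 went from 1.70 to 3.20. The plot of OB over MSC changes gives each member by class.

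**Figure D3:**
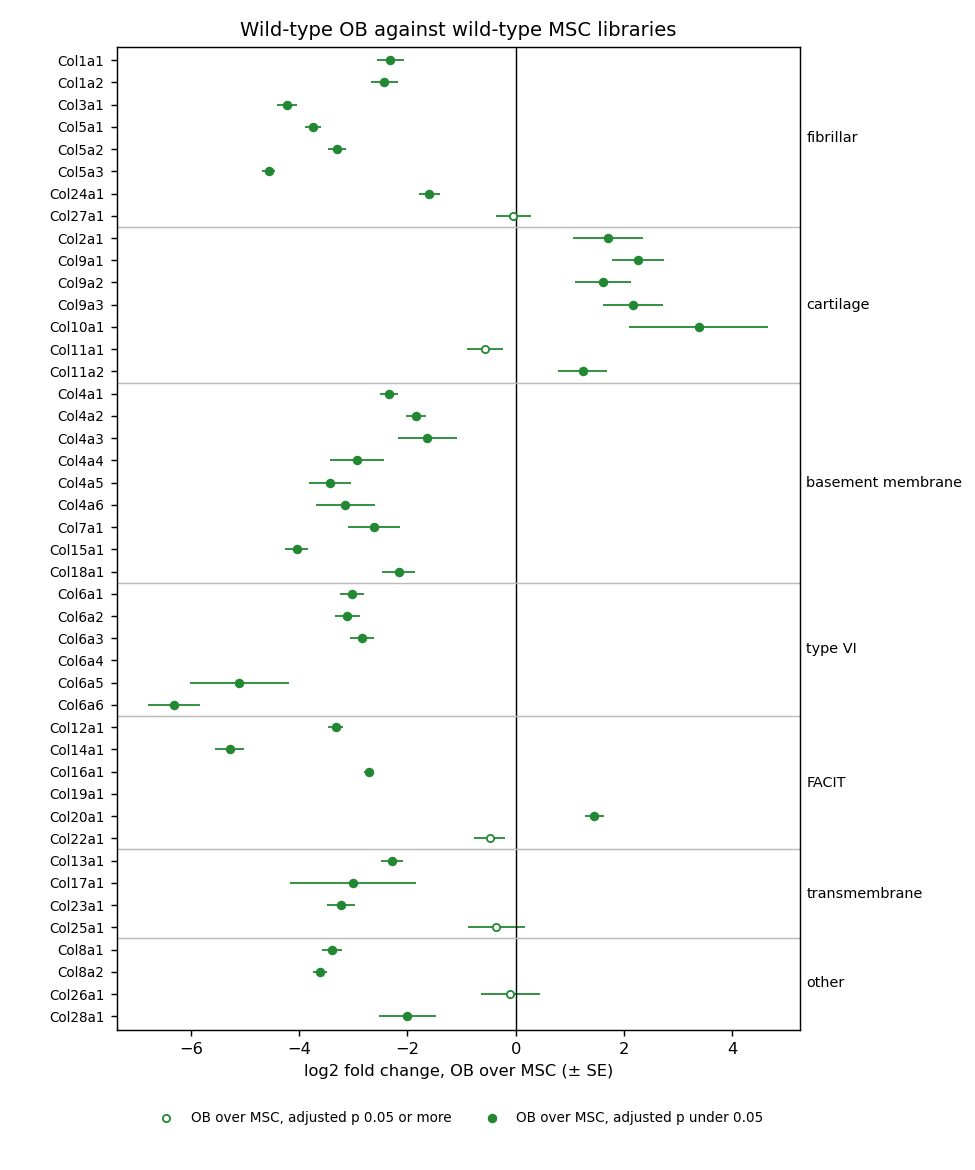
Log2 fold change of each collagen gene, wild-type OBs over wild-type MSCs (x axis), with bars of 1 SE from limma, ordered by class; Col6a4 and Col19a1 were not tested. Filled points have an adjusted p under 0.05: 30 lie left of 0, down to -6.31 for Col6a6, and 7 right of it, up to 3.38 for Col10a1.

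Since the animals lack miR-9-1, one of the loci that encode miR-9, the collagen 3′ UTRs were searched for the site of the miR-9-5p seed, and the sites are shown because they mark which members hold a match to that seed. The mature sequence is that of RefSeq (GRCm38.p6), with the seed, bases 2 to 8, in capitals. Each site ACCAAAG is shown in capitals within 29 bases of the longest 3′ UTR in the GENCODE M21 annotation (GRCm38), on the transcribed strand.
mmu-miR-9-5p, chr3:88215613-88215635 (+): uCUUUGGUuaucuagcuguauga
Col15a1, chr4:47312410-47312438 (+): tcaaaagagaaACCAAAGaaaacatacct
Col12a1, first site, chr9:79600700-79600728 (-): cccgcttctgcACCAAAGcctgctggctg
Col12a1, second site, chr9:79600544-79600572 (-): caatttttcaaACCAAAGtttaaaatcaa
Col4a2, chr8:11448585-11448613 (+): gttttcaaactACCAAAGcaattctgcac
Col9a1, chr1:24252541-24252569 (+): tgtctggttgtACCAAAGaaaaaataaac
Col27a1, chr4:63333495-63333523 (+): cccaagaaccaACCAAAGagccagtcaaa
Col22a1, chr15:71797901-71797929 (-): taaaacacttgACCAAAGgcaagtcgtgg
The seed match alone was found in 8 of the 44 collagen genes (18.2%), and in 2564 of 21020 genes with an annotated 3′ UTR (12.2%), where the median UTR had 1032 bases for collagens and 961 for all. Col25a1 (2 sites) and Col4a3 (1 site) are the other genes with one. An A follows the seed match in Col15a1, Col9a1 and Col27a1, which is a known feature of stronger sites.
The 8 genes did not share a direction. In deficient MSCs Col15a1 fell, and the log2 fold changes of the others, none of which passed, ran from -2.57 (Col9a1), -1.65 (Col22a1), -1.19 (Col25a1) and -1.08 (Col27a1) to 0.12 (Col4a2), 0.15 (Col4a3) and 0.36 (Col12a1). A match is a description of the sequence only.

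The fibrillar genes had lower means in deficient libraries of both sorts, and none passed the test. Their median log2 fold change was -1.19 in MSCs and -1.55 in OBs, all 8 had a lower mean in each, and 8 of 8 in MSCs and 7 of 8 in OBs had an unadjusted p under 0.05 (22.8% and 8.95% of all genes did). Osteoblast markers, whose cells make type I collagen, had a mean log2 level of 8.02 to 8.31 in wild-type and 7.11 to 8.15 in deficient MSCs, which overlap, and of 7.51 to 8.33 and 5.50 to 7.26 in the OB groups, which do not, and their part was not tested. Their summed level overlapped between genotypes in MSCs (29307 to 38769 and 22788 to 56708) and in OBs (8811 to 13063 and 3465 to 10282). Markers of tendon and fibroblasts, cells that also make these chains, had a mean log2 level of 11.99 to 12.68 in wild-type MSCs, 11.40 to 12.36 in deficient MSCs, 9.63 to 10.23 in wild-type OBs and 8.32 to 9.72 in deficient OBs, and their part was not tested. Col1a1 (chr11:94936224-94953042, GRCm38) encodes the more abundant chain of type I collagen, the main protein of bone. Its normalized counts were 813054, 605489, 604933 and 765769 in wild-type MSCs A to D and 202909.9, 402536, 399772 and 150989.8 in deficient MSCs E to H. The groups did not overlap, with E and H lowest, at a log2 fold change of -1.38 ± 0.54 (SE; limma adjusted p = 0.165). OB values were 156742, 198771, 88879 and 134052 in wild-type and 25026, 50379, 48660.3 and 8330.2 in deficient libraries. These groups did not overlap either, and H was far below the rest (-2.38 ± 0.52, adjusted p = 0.204; without H 0.0357). Col1a2 (chr6:4504814-4541544), the partner chain, had 718747, 538047, 557139 and 645983 in wild-type and 217001, 361239, 393981 and 167357 in deficient MSCs, again without overlap (-1.19 ± 0.51, adjusted p = 0.196). Its OB values were 130112, 161647, 73397 and 107592 (wild-type) and 36354, 57141, 49692 and 9649 (deficient), also without overlap (-1.85 ± 0.51, adjusted p = 0.310). After quantile normalization, Col1a1 in MSCs was -0.20 (limma adjusted p = 0.807) and Col1a2 0.04, while in OBs they were -1.97 and -1.08. That method sets the highest values of all libraries equal, so it can hide a change in genes as high as these. Whether the type I changes rest on the scaling was therefore not tested. Both type I chains were lower in wild-type OBs than in wild-type MSCs, 4.98-fold for Col1a1 (adjusted p = 1.24e-05) and 5.38-fold for Col1a2 (adjusted p = 6.18e-06), and after quantile normalization neither passed (-0.42 and -0.55, adjusted p = 0.133 and 0.0568).

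Col3a1 (chr1:45311538-45349706), type III collagen of soft tissue and vessel walls, was 470562, 353771, 299743 and 307734 in wild-type MSCs and 91915, 206489, 208624 and 71402 in deficient ones. It did not overlap between the groups (-1.44 ± 0.46, limma adjusted p = 0.116; -0.77 after quantile normalization). In OBs it was 22763, 21595, 14898 and 16806 (wild-type) and 4705, 19031, 4980.4 and 1359.7 (deficient), and the deficient library F lay among the wild-type ones (-1.92 ± 0.63, adjusted p = 0.389). Of the members with the highest levels it had one of the widest gaps between the sorts, 18.8-fold lower in wild-type OBs (adjusted p = 1.57e-08). Col5a1 and Col5a2 encode the chains of type V collagen, which sits inside type I fibrils and sets their diameter. Col5a1 was 75902, 65535, 57492 and 73480.4 in wild-type and 21180.3, 48000.2, 40233 and 19203 in deficient MSCs (-1.19 ± 0.31, adjusted p = 0.0802). Col5a2, the neighbour of Col3a1 on chromosome 1, was 66605, 58455, 49709 and 63616 (wild-type) and 39273, 46668, 38631 and 23711 (deficient) (-0.72 ± 0.25, adjusted p = 0.133). Neither overlapped between the MSC groups. In OBs both did overlap: Col5a1 was 5299, 6165, 3744 and 5369.6 in wild-type and 2548, 5260.0, 1923 and 766 in deficient libraries. Col5a2 was 6099.6, 7910.4, 4350.0 and 6299.8 (wild-type) and 4788, 5571, 2844 and 1073 (deficient), with E and F inside the wild-type range. Against wild-type MSCs, wild-type OBs were 13.4-fold lower for Col5a1 and 9.82-fold lower for Col5a2 (adjusted p = 9.9e-09 and 3.63e-08).

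The remaining fibrillar genes were at lower levels. Col5a3, the third type V chain, ran from 6521 to 9227 in wild-type and 1294 to 4583 in deficient MSCs, without overlap (-1.43 ± 0.33, limma adjusted p = 0.0608). Among fibrillar genes it had the widest gap between the sorts, 23.7-fold lower in wild-type OBs, where it was 283 to 355 (adjusted p = 4.42e-09). Col24a1, a minor fibrillar collagen of developing bone, was 635 to 1056 in wild-type and 207 to 875 in deficient MSCs, with F inside the wild-type range. It was 3.02-fold lower in wild-type OBs (adjusted p = 2.95e-05). Col27a1, a fibrillar collagen found mainly in cartilage, was shared more evenly by the sorts. Its values were 3559, 3729.9, 3968 and 9241 in wild-type MSCs, with D apart, and 6499, 3082, 3668 and 5888 in wild-type OBs, so the sorts overlapped (-0.04 ± 0.32, adjusted p = 0.913; without MSC library D 0.28). In deficient OBs it was 692, 1638, 1401 and 639.6, wholly below wild-type OBs (-2.18 ± 0.35, adjusted p = 0.0874; without H 0.0357, without F 0.0416).

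The cartilage class was the one class higher in wild-type OBs than in wild-type MSCs, and it had the lowest median change of the named classes with genotype. Against MSCs, 6 of 7 genes were higher in wild-type OBs (median log2 fold change 1.70). Deficient against wild-type, the median was -2.20 in MSCs and -2.15 in OBs, and 0 of 7 passed in either. The mean log2 level of 10 cartilage markers other than collagens (Acan, Sox9, Comp, Matn1, Matn3, Hapln1, Chad, Cnmd, Ucma, Snorc) was 10.33 to 12.27 in wild-type MSCs, 8.60 to 10.28 in deficient MSCs, 10.79 to 12.06 in wild-type OBs and 9.69 to 10.84 in deficient OBs. Between genotypes the ranges did not overlap in MSCs and overlapped in OBs, and between wild-type sorts they overlapped. Their summed level was 121546 to 228987, 29402 to 165141, 42792 to 88275 and 20439 to 53433 in the same order, lower in wild-type OBs than in wild-type MSCs, and the matrilin gene Matn1 was at 0 in 4 MSC libraries. The part of chondrocyte RNA in the values of these collagens was not tested.

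Col2a1 (chr15:97975602-98004695, GRCm38) encodes type II collagen, the main protein of cartilage. It was 28777, 31827, 44494 and 272356 in wild-type MSCs A to D and 1663, 11881, 10103 and 12300.5 in deficient MSCs. The groups did not overlap, D was the one high library, and E the one very low library (-3.04 ± 0.77, limma adjusted p = 0.0736; without D -2.29, adjusted p = 0.134). Its OB values were 303804, 128638, 111103 and 286650.4 in wild-type and 36825, 17701, 38279 and 16362 in deficient libraries. Every deficient OB library was below every wild-type one, and the change was close to the one in MSCs (-2.89 ± 0.40, adjusted p = 0.0765). It passed when E was left out (0.0430) or H (0.0322). Between wild-type sorts it was 3.25-fold higher in OBs (adjusted p = 0.0360). MSC library D lay among the OB libraries, and the call was lost with edgeR (0.155), with DESeq2 (0.190) and without MSC A, B or C or OB A or D (0.0846 to 0.105). Without MSC library D, the difference was 2.45 (adjusted p = 0.000155).

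Type IX collagen, a FACIT that coats type II fibrils, is built from the chains of Col9a1, Col9a2 and Col9a3, and all 3 were higher in wild-type OBs. Col9a1 was 1260.0, 1455, 1712 and 5801 in wild-type MSCs and 16118, 6556, 5977 and 14892 in wild-type OBs, without overlap, 4.77-fold higher (limma adjusted p = 0.00158). It was among the few cartilage calls that edgeR and DESeq2 also made (adjusted p = 0.00405 and 0.00150). In deficient MSCs Col9a1 was 115, 369.9, 576 and 595 and in deficient OBs 4488, 1267, 3395 and 1242. Neither deficient group overlapped with its wild-type group (-2.57 ± 0.56 in MSCs, adjusted p = 0.0551; -2.15 ± 0.49 in OBs, adjusted p = 0.218). Col9a3 was 4.49-fold higher in wild-type OBs (adjusted p = 0.00510) and Col9a2 3.04-fold (adjusted p = 0.0174; lost with edgeR, 0.0511, with DESeq2, 0.102, and without MSC A or OB A, 0.0515 to 0.0560). In both, MSC library D (5687 and 9203) reached into the range of the OB libraries. Col9a1 was lower relative to its partner chain in deficient libraries. Per kilobase of transcript, the ratio of Col9a1 to Col9a2 was 0.481 to 0.618 in wild-type MSCs and 0.118 to 0.308 in deficient MSCs, and 0.836 to 0.993 and 0.418 to 0.557 in the OB groups. In neither sort did the groups overlap. The ratio of Col9a3 to Col9a2 was 0.777 to 0.852 in wild-type and 0.392 to 0.433 in deficient OBs, without overlap, and overlapped in MSCs (0.418 to 0.609 and 0.212 to 0.499).

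Col10a1 encodes type X collagen, made by hypertrophic chondrocytes as growth plate cartilage is replaced by bone. It was 708, 40.1, 211 and 5029.8 in wild-type MSCs, spread over a wider range than any other member of its class, and 14155, 931, 3098 and 8912 in wild-type OBs. Its difference of 3.38 ± 1.29 between the sorts had a limma adjusted p of 0.0358 and was lost with edgeR (0.118), with DESeq2 (0.132) and without MSC A, B or C or OB A, C or D (0.0516 to 0.0959). Deficient MSCs had 37.6, 23.2, 142 and 275, overlapping with wild-type (-2.43 ± 1.24, adjusted p = 0.269). Deficient OBs had 876, 396, 606 and 54.9, all below wild-type OBs, though E came near B of the wild-type (-3.73 ± 0.98, adjusted p = 0.290). Type XI collagen nucleates type II fibrils, and its chains parted between the sorts. Col11a2 was 5775, 6721, 7458 and 28523 in wild-type MSCs and 33510.0, 18051, 14289 and 29075 in wild-type OBs (2.35-fold higher, adjusted p = 0.0335; lost with edgeR, 0.0912, with DESeq2, 0.156, and without MSC A, B or C or OB A or D, 0.0807 to 0.0993). Col11a1 was 30216, 27658, 23589.6 and 49807 (MSCs) and 30553, 16679, 11796 and 33753 (OBs) in the same libraries, with no call (-0.57 ± 0.33, adjusted p = 0.148). Its sign turned with quantile normalization (0.74, adjusted p = 0.0499), while with the mouse as a replicate block it passed as lower (-0.57, adjusted p = 0.00499). The ratio of Col11a1 to Col11a2 per kilobase was 1.23 to 3.68 in wild-type MSCs and 0.581 to 0.817 in wild-type OBs. In deficient MSCs Col11a1 was 8377, 20108, 11763 and 9388, wholly below wild-type (-1.43 ± 0.30, adjusted p = 0.0517), and in deficient OBs 5857, 5610.4, 6637 and 2598, again wholly below (-2.12 ± 0.38, adjusted p = 0.112). Col11a2 was 882, 2581, 3082 and 2632 in deficient MSCs (-2.20 ± 0.50, adjusted p = 0.0608) and 11195, 4171, 7878 and 3282 in deficient OBs (-1.93 ± 0.40, adjusted p = 0.178). Both were outside the wild-type range of their sort in all 8 deficient libraries.

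**Figure D4:**
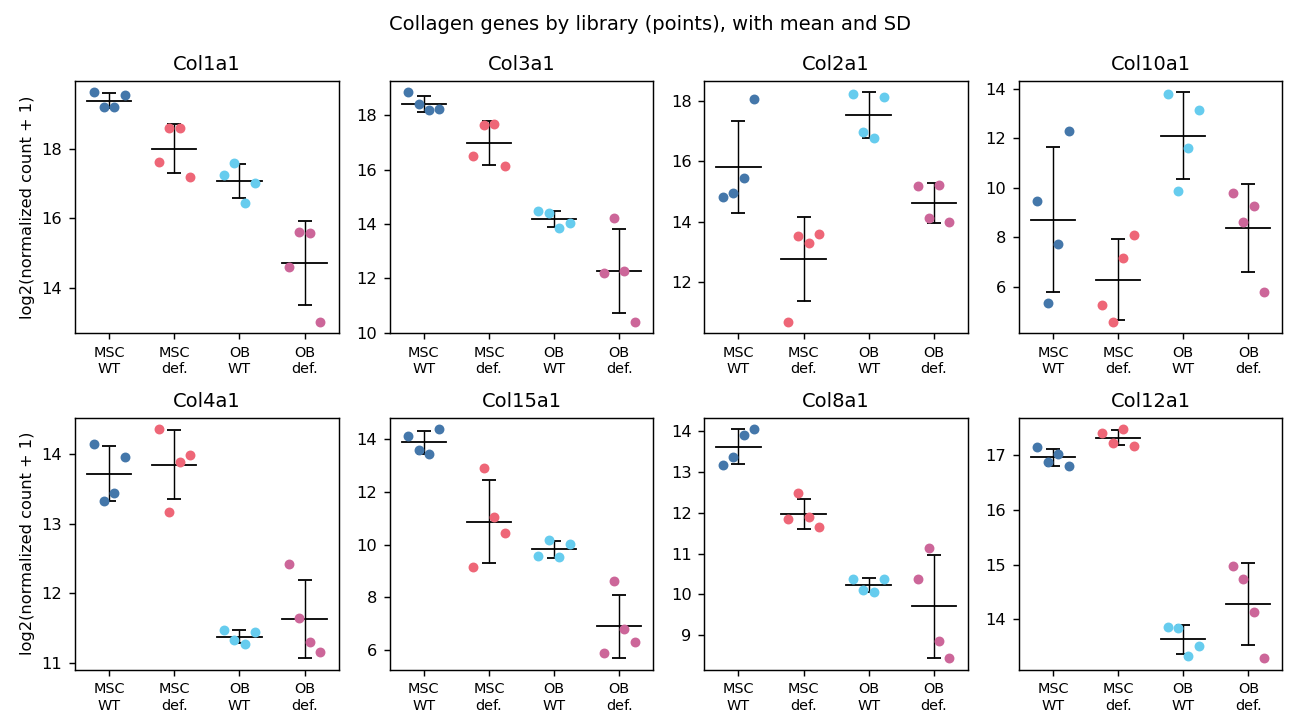
log2(normalized count + 1) of 8 collagen genes in each library (points), with the mean (line) and SD (bars) of the 4 libraries of a group; x axis, sort and genotype (WT, wild-type; def., deficient). Col1a1, Col2a1 and Col15a1 lie lower in the deficient groups of both sorts without overlap, Col4a1 overlaps between genotypes in both, and Col12a1 lies higher in deficient MSCs.

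Basement membrane collagens split. The type IV chains overlapped between the genotypes in both sorts, while Col15a1 fell in deficient MSCs. The median log2 fold change of the 9 genes was 0.12 in MSCs and -0.23 in OBs. Col4a1 and Col4a2 encode the chains of the common type IV network and lie head to head on chromosome 8. Their RefSeq starts are 21 bases apart (GRCm38.p6), placed so that the transcripts overlap at their 5′ ends. Col4a1 was 18171, 10234, 11177 and 15996 in wild-type and 21037, 9178, 15142 and 16341 in deficient MSCs. The libraries interleaved (0.13 ± 0.27, limma adjusted p = 0.803), and the sign turned when B or E was left out (-0.00256 and -0.04). Col4a2 was 14845, 8322, 8836 and 14582 (wild-type) and 15268, 8207, 12619 and 14045 (deficient) in the same libraries. It rose and fell with Col4a1 from library to library, with a ratio of Col4a1 to Col4a2 per kilobase of 1.07 to 1.23 in wild-type and 1.09 to 1.34 in deficient MSCs (0.12 ± 0.25, adjusted p = 0.808). In OBs, Col4a1 was 2831, 2577, 2464 and 2776 in wild-type libraries, a narrow range, and 5465, 3199, 2513 and 2282 in deficient ones. Col4a2 was 3185, 3020.0, 3050.4 and 3316 (wild-type) and 4978, 3369, 3060.0 and 3094 (deficient). The high deficient library was E for both. Without E and F, the 2 with more MSC stroma RNA, the signs turned (-0.15 and -0.03). F held more of that RNA than E (mean log2 level 10.87 against 10.52) and had lower Col4a1 and Col4a2. Wild-type OBs were 5.08-fold lower than wild-type MSCs for Col4a1 (adjusted p = 3.79e-07) and 3.58-fold lower for Col4a2 (adjusted p = 5.03e-06). Endothelial markers, whose cells also make type IV collagen, were at a mean log2 level of 6.37 to 8.17 in wild-type MSCs and 8.13 to 8.46 in wild-type OBs. Markers of mural (vessel wall) cells went the other way, at 10.30 to 12.48 in wild-type MSCs and 7.89 to 9.05 in wild-type OBs. Among deficient OBs, E was highest in mural markers, at 10.23 against 8.20 to 8.49 in F, G and H. The part of either cell type was not tested.

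The tissue-restricted type IV chains Col4a3 and Col4a4, a head-to-head pair on chromosome 1, and Col4a5 and Col4a6, a pair on the X chromosome, were at low levels. Col4a3 ran from 31.1 to 179 in wild-type MSCs and Col4a5, the highest, from 223 to 877. In OBs they ran down to 2.61 (Col4a6 in deficient library F). None passed by genotype (limma adjusted p = 0.399 to 0.901 in MSCs). All 4 were lower in wild-type OBs, from -1.63 (Col4a3, adjusted p = 0.0202) to -3.43 (Col4a5, adjusted p = 1.42e-05), and the Col4a3 call was lost with quantile normalization (0.132) and without MSC A or OB A or D (0.0526 to 0.0555). Col7a1, of the anchoring fibrils that tie basement membranes to the tissue below, was 46.6 to 212 in wild-type MSCs and 10.5 to 19.6 in wild-type OBs (-2.61 ± 0.48, adjusted p = 0.00056), with no call by genotype.

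Col15a1 (chr4:47208161-47313167, GRCm38) encodes type XV collagen, a multiplexin at the outer face of basement membranes. It was 17661, 12281, 10967 and 21216 in wild-type MSCs and 561, 7578, 2106 and 1382 in deficient MSCs. Every deficient library was below every wild-type one, E by the most and F by the least, and the gene fell 7.99-fold (-3.00 ± 0.60, limma adjusted p = 0.0440). The call was kept without F (0.000755) and with DESeq2 (0.0423), and lost with edgeR (0.0842), without G and H (0.276) and without any single library other than F. In OBs the level was lower and the gap as wide: 764, 1146, 741 and 1036 in wild-type and 58.0, 393, 109.7 and 78.2 in deficient libraries. The groups did not overlap (-2.92 ± 0.50, adjusted p = 0.103), and it passed without F, the highest deficient library (0.00222). Wild-type OBs were 16.5-fold lower than wild-type MSCs (adjusted p = 5.12e-08). Col18a1, the other multiplexin, whose end fragment is endostatin, did not follow it. It was 2693, 1187, 2221 and 4233 in wild-type and 1288, 1477, 1584 and 2499 in deficient MSCs, which overlapped (-0.50 ± 0.33, adjusted p = 0.392), and 537, 491, 457 and 616 (wild-type) and 751, 333, 405 and 389 (deficient) in OBs (-0.23 ± 0.23, adjusted p = 0.785). Between wild-type sorts it was 4.48-fold lower in OBs (adjusted p = 7.71e-05).

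Type VI collagen forms the beaded filaments around cells from the chains of Col6a1, Col6a2 and Col6a3, and all 3 were lower in deficient libraries without passing. Col6a1 was 64565, 54074, 45434 and 86469 in wild-type and 16256, 47927, 37450.3 and 18388 in deficient MSCs (-1.17 ± 0.36, limma adjusted p = 0.110). Col6a2, its neighbour on chromosome 10, was 53870.2, 46728, 36774 and 78449 (wild-type) and 10402, 40100.3, 27981 and 12612 (deficient) (-1.41 ± 0.41, adjusted p = 0.0973). Col6a3 was 68141, 59693, 49270.4 and 101586 (wild-type) and 12555, 58985, 39075 and 17871 (deficient) (-1.32 ± 0.45, adjusted p = 0.126). In each, E, G and H were at less than the lowest wild-type value, and F reached into the wild-type range, while D was the highest library. OB values were 9159, 6701, 5373 and 9582 in wild-type and 4864, 6282, 3241 and 1418 in deficient libraries for Col6a1. For Col6a2 they were 6860.1, 5502, 4307 and 8032 (wild-type) and 2575, 4392, 2172 and 949 (deficient). For Col6a3 they were 11122, 8671, 6791 and 11791 (wild-type) and 5275, 5874, 3793 and 1536 (deficient), the one of the 3 whose OB groups did not overlap. Log2 fold changes lay within -1.45 to -1.12 (adjusted p = 0.310 to 0.437), near those in MSCs. Against wild-type MSCs, wild-type OBs were 8.12-fold lower for Col6a1, 8.63-fold for Col6a2 and 7.16-fold for Col6a3 (adjusted p = 5.3e-07, 6.85e-07 and 1.02e-06). Col6a4, Col6a5 and Col6a6, a cluster of alternative chains on chromosome 9, were rare. Col6a5 was 264 to 466 and Col6a6 220.1 to 538 in wild-type MSCs, and both were lower in wild-type OBs (-5.10 ± 0.92 and -6.31 ± 0.48; adjusted p = 0.000502 and 6.58e-07), where Col6a6 ran from 1.51 to 7.86. Col6a4 had 0 reads in wild-type MSC A and in deficient MSCs E and F, and was at most 42.1 in any library.

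Among the FACITs, Col12a1 stood apart as the abundant member whose mean was not lower in deficient cells. It encodes type XII collagen, which bridges type I fibrils in dense and loaded tissue. In MSCs it was 145769, 120301, 132276 and 113671 in wild-type and 172545, 153169, 181487 and 147588 in deficient libraries. All 4 deficient libraries lay above all 4 wild-type ones, by a small margin, and the change did not pass (0.36 ± 0.30, limma adjusted p = 0.507). In OBs it was 14879.7, 14615, 10275 and 11647 in wild-type and 32292, 27166, 18014 and 10006 in deficient libraries. E, F and G lay above the wild-type range and H just below it (0.65 ± 0.32, adjusted p = 0.584). Wild-type OBs were lower than wild-type MSCs (-3.33 ± 0.14, adjusted p = 1.24e-08). Col14a1, type XIV collagen, was 6249, 3705, 3622 and 2939 in wild-type and 936, 6552, 3921 and 1879 in deficient MSCs. E and H were low and F above every wild-type library (-0.61 ± 0.49, adjusted p = 0.482). In OBs it was 123, 141, 88.9 and 66.1 (wild-type) and 38.9, 234, 166 and 21.8 (deficient), with a sign that depended on the tool (-0.39 with limma, 0.16 with edgeR, neither passing). Between sorts it fell 39.0-fold in wild-type OBs (adjusted p = 3.66e-08), the widest gap among FACITs. Col16a1 was 24504 to 29700.0 in wild-type and 6472 to 16650.5 in deficient MSCs, without overlap (-1.28 ± 0.30, adjusted p = 0.0611), and 6.54-fold lower in wild-type OBs (adjusted p = 5.78e-09). Col22a1, of tissue junctions, was 909.9 to 2560.2 and 289 to 677 in the MSC groups and 722 to 1409 and 66.9 to 397 in the OB groups, without overlap in either sort (-1.65 ± 0.35 and -2.53 ± 0.54, adjusted p = 0.0528 and 0.183). Between wild-type sorts it did not pass (-0.48 ± 0.29, adjusted p = 0.163), and did so as lower in OBs with the mouse as a replicate block (0.0461) or without MSC library C (0.0455). Col20a1 was the one member outside the cartilage class that rose in wild-type OBs, where it was 394 to 499 against 128 to 196 in wild-type MSCs (2.74-fold, adjusted p = 1.9e-05), and it overlapped between genotypes. Col19a1 was at most 51.3 in any library.

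Transmembrane collagens were at low levels. Col13a1, type XIII collagen of cell adhesion sites, was 1421, 1466, 1219 and 1124 in wild-type and 262, 1253, 600.0 and 281 in deficient MSCs, where F lay within the wild-type range (-1.42 ± 0.41, limma adjusted p = 0.0940). The OB values were 287, 404, 218 and 194 (wild-type) and 30.1, 178, 65.1 and 15.0 (deficient). All deficient OB libraries were below the wild-type ones (-2.43 ± 0.63, adjusted p = 0.284; without F 0.0485). It was 4.90-fold lower in wild-type OBs than in MSCs (adjusted p = 2.44e-06). Col23a1 was 198 to 299.7 in wild-type and 127 to 221 in deficient MSCs, and 18.4 to 29.9 in wild-type OBs and up to 65.1 in deficient ones. Its changes had opposite signs (-0.51 ± 0.25 and 0.62 ± 0.37), and the difference between them did not pass (1.13 ± 0.46, adjusted p = 0.379). It was 9.36-fold lower in wild-type OBs (adjusted p = 1.04e-06). Col17a1, type XVII collagen of epithelial hemidesmosomes, was 25.0, 41.4, 869 and 13.5 in wild-type MSCs, with library C alone far above. Its call as lower in wild-type OBs (-3.00 ± 1.16, adjusted p = 0.0379) was lost with quantile normalization (0.0765), with all 16 libraries in 1 fit (0.0568) and without MSC B or C or OB A, C or D (0.0549 to 0.0989). DESeq2 did not call Col17a1 either. Col25a1, a collagen of neurons, was 25.9 to 90.2 in wild-type MSCs and did not pass in any comparison. Of the 4 remaining genes, Col8a1 (chr16:57624258-57754737, GRCm38), a chain of the short-chain network collagen type VIII of vessel walls, passed in MSCs. It was 9161, 10518, 15459.5 and 16899 in wild-type and 3652, 5757, 3821 and 3200.1 in deficient libraries, wholly apart, and fell 3.15-fold (-1.65 ± 0.23, adjusted p = 0.0253). The call was kept with edgeR (0.0270), with DESeq2 (2.09e-08) and without A or F. It was lost without G and H (0.256) and without any single other library (up to 0.0831). In OBs Col8a1 was 1325, 1108, 1069.8 and 1319 (wild-type) and 1339, 2239.9, 464 and 345 (deficient). E and F were above the wild-type range and G and H below it (-0.53 ± 0.51, adjusted p = 0.779). The difference of the genotype effects between the sorts did not pass (1.13 ± 0.60, adjusted p = 0.490). Its partner Col8a2 was 7009 to 9662 in wild-type and 729 to 6685 in deficient MSCs, without overlap (-2.07 ± 0.54, adjusted p = 0.0798), and both type VIII genes were lower in wild-type OBs (10.5-fold and 12.3-fold; adjusted p = 5.63e-08 and 4.5e-09). Col26a1 was 42.9 to 74.1 in wild-type and 0.735 to 8.77 in deficient OBs, without overlap (-3.56 ± 0.56, adjusted p = 0.0874; without E 0.0430, without H 0.0422). Col28a1 overlapped between genotypes in both sorts and was 4.01-fold lower in wild-type OBs (adjusted p = 0.00554).

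The 250 bases before the RefSeq start (GRCm38.p6) of the only members that passed by genotype are shown, on the transcribed strand, with the GC box GGGCGG or its complement CCGCCC in capitals.
Col15a1, chr4:47207762-47208011 (+): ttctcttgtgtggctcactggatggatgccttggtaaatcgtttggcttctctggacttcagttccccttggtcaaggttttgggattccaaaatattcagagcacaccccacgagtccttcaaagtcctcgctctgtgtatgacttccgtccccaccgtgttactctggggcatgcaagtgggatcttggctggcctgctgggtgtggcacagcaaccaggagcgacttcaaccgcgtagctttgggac
Col8a1, chr16:57754738-57754987 (-): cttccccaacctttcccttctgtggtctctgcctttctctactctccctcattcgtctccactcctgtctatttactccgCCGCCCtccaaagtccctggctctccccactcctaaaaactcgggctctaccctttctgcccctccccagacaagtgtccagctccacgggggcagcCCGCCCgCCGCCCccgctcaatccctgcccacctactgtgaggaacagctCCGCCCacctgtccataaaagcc
Col8a1 held 4 GC boxes there and Col15a1 0, and neither held CCAAT or TATAAA on either strand. Over the promoter windows of 300 bases (250 before and 50 after the start) that RefSeq gave for 35 of the 44 members, 62.9% held GGGCGG, 34.3% CCAAT and 14.3% TATAAA, on either strand. Over all 27025 promoters the shares were 35.9%, 37.9% and 14.2%. A match of letters is not a bound site.

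Compared per kilobase of the transcript with the longest coding region, the type I chains led in wild-type MSCs, at 117590.0 ± 18227 (Col1a1) and 114992 ± 15642 (Col1a2) normalized counts per kilobase, which do not differ beyond their spread. Col3a1 followed at 64334 ± 14155, below every value of both. Col2a1 came next by mean (18488 ± 23287), carried by library D, and did not differ beyond its spread from Col6a1 (15277 ± 4319.6), Col6a2 (13663 ± 4499.9) or Col12a1 (11120.2 ± 1227). In wild-type OBs Col2a1 led (40664 ± 19933), overlapping with Col1a1 (24386 ± 7727) and Col1a2 (22099 ± 6954), and Col11a2 followed at 4399.6 ± 1677. In deficient MSCs Col12a1 (14221 ± 1387) came next after Col1a2, Col1a1 and Col3a1, and in deficient OBs (1899.9 ± 858) next after Col1a2, Col1a1 and Col2a1. Type I collagen holds more of the Col1a1 chain than of Col1a2. The ratio of Col1a1 to Col1a2 per kilobase was 1.02 ± 0.0369 in wild-type and 0.894 ± 0.0852 in deficient MSCs, which overlapped through F (0.979 to 1.07 and 0.814 to 1.00). In OBs it was 1.10 ± 0.0169 and 0.769 ± 0.109, without overlap (1.09 to 1.12 and 0.621 to 0.883). Ratios are a description, with no test. The heat map gives every member in every library.

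**Figure D5:**
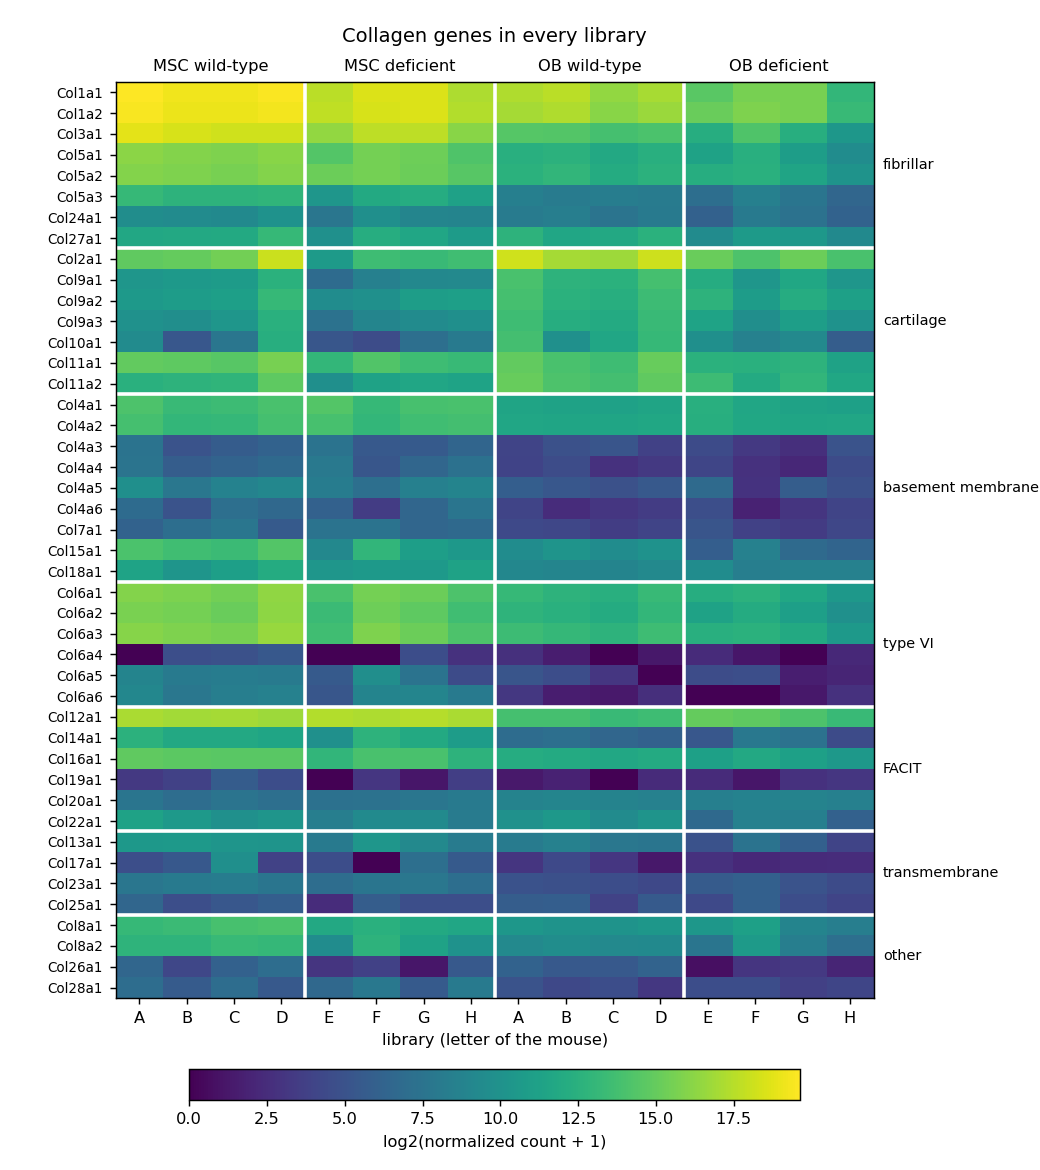
log2(normalized count + 1) of the 44 collagen genes (rows, by class) in the 16 libraries (columns, letter of the mouse, by group), on 1 colour scale. The type I and III rows are brightest in wild-type MSCs, the cartilage rows other than Col11a1 are brighter in wild-type OBs and in wild-type MSC D than in MSCs A to C, and Col12a1 stays bright in deficient MSCs.

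A list of 45 genes that modify, fold, cut, cross-link or bind collagen was read in the same way, with 43 tested (Tll2 and Gp6 had too few reads). In deficient MSCs 5 fell and 1 rose (limma, where 1.06% of all genes passed), with a list median of -0.60. Without wild-type MSC library B, 0 of all genes passed in either direction, so each of these calls was lost there. Of the enzymes that remove the end pieces of procollagen, 3 of 7 tested fell: Bmp1, which cuts the C end, from 6996 ± 354 to 3781 ± 752 (-0.91 ± 0.16, adjusted p = 0.0348), Adamts2, which cuts the N end, from 11389 ± 1346 to 6184 ± 1283 (-0.90 ± 0.18, adjusted p = 0.0426), and Adamts3 from 744 ± 159 to 326 ± 72.1 (-1.19 ± 0.22, adjusted p = 0.0373). Of 5 cross-linking enzymes Loxl2 fell, from 7550.0 ± 1125 to 3161 ± 1341 (-1.34 ± 0.26, adjusted p = 0.0410). Among receptors, Lair1, an inhibitory collagen receptor of leukocytes, fell from 136 ± 77.6 to 19.2 ± 10.3 (-2.77 ± 0.52, adjusted p = 0.0373), and Itga10, the alpha chain of a collagen-binding integrin of chondrocytes, rose from 3697 ± 607 to 9041 ± 2303 (1.26 ± 0.21, adjusted p = 0.0269). None of the 22 genes of prolyl and lysyl hydroxylation, glycosylation, chaperones and export passed, at medians from -0.80 to -0.56. In deficient OBs 0 of 43 passed, where 0.0211% of all genes were higher and 0.00703% lower. The list median was -0.39 there, against -0.02 over all genes. In wild-type OBs against MSCs 41 of 43 were lower, where 35.5% of all genes were lower and 34.4% higher, with a median of -1.98. Lair1 was higher (1.33 ± 0.30, adjusted p = 0.00239), and Loxl4 did not pass. The difference of the genotype effects passed for 0 of 43, where 0.0129% of all genes passed.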

How the data were processed

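The 16 libraries were grouped by the labels, 4 to a group. The values are the authors' deposited normalized counts, a signal per gene symbol scaled by 1 size factor per library. Per the submitters' processing notes the tool was DESeq2, version 1.24.0, on mm10; for the aligner, the counting and the annotation, nothing is given in the sources used here. After undoing the size factor, 100% of deposited values were whole reads within 0.01, and these reads gave the depth and entered edgeR and DESeq2.

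The main test was limma 3.58.1 (empirical Bayes with trend, R 4.3.3) on log2(normalized count + 1), for genes reaching 10 in at least 4 of the libraries fitted, with Benjamini-Hochberg adjustment over all genes tested and a threshold of 0.05. It was tested on simulated data. Alternatives were a pseudocount of 5, no filter or a minimum of 50, quantile normalization, edgeR 4.0.16, DESeq2 1.42.0, all 16 libraries in 1 fit, each library left out, G and H or E and F left out together, the mouse as a replicate block, shares without the ribosomal precursor Rn45s and, chosen after seeing the data, the MSC libraries high in Xist alone. The pairing by mouse comes from the animal number in the labels. In a check of it, the MSC and OB library of 1 mouse deviated from their groups with a correlation between 0.0241 and 0.285, and for 7 of the 8 mice this was the best match. Members, classes and lists were chosen with earlier results of these data known. By rule, values in every library are given for genes fixed by name in each class. The other passing members, for length, have group ranges. Levels per kilobase use GENCODE M21 transcripts.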

Additional observations from a re-analysis of the deposited data

Results flagged for a closer look

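Of 168 sets of 4 values examined, which are each gene in each group with a mean of at least 10 and the 4 collagen shares, 11 had a highest library set apart from the other 3 by more than Dixon's 95% limit. For independent sets of normally distributed values chance gives about 1 in 20. These sets share libraries, so that rate cannot be set against the count of 11. In wild-type MSCs, 7 were library D: Col2a1 272356 (others at most 44494), Col9a1 5801, Col9a2 9203, Col9a3 5687, Col10a1 5029.8, Col11a2 28523 and Col27a1 9241. Non-collagen cartilage markers were also highest in that library (12.27 mean log2), and their part in these values was not tested. Library C of the wild-type MSCs was apart for Col17a1 (869, others 13.5 to 41.4). In deficient OBs, E was apart for Col4a2 (4978) and F for Col15a1 (393) and Col8a2 (1643), and both held more MSC stroma RNA than the other 6 OB libraries. E was also the OB library highest in mural markers (10.23 mean log2), and the part of either was not tested.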

How the results depend on the processing

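Limits are small groups, 8 libraries a fit, 1 deficient MSC library (F) inside the wild-type range for some members, and OB libraries that differ in stroma RNA. The share of all genes is not given here for the fits with a pseudocount of 5 or without G and H. For collagen genes passing in deficient MSCs (2), the count was 4 with a pseudocount of 5, 5 with quantile normalization, 1 with edgeR, 15 with DESeq2, 12 with all 16 libraries in 1 fit, 0 without G and H, 5 in the MSC libraries high in Xist alone, and 0 to 20 when 1 library was left out. In deficient OBs (0), it was 1 with a pseudocount of 5, 12 with DESeq2, 1 with all 16 libraries, 12 without E and F, and 0 to 5 when 1 library was left out. Between wild-type sorts (37) it stayed within 1.5 times under every alternative run, while the higher calls within it (7) were 3 with edgeR, with DESeq2 and without MSC A or OB A, 4 without MSC B, MSC C or OB D, 6 without OB C and 8 with quantile normalization, and for the difference of genotype effects it was 0 under each. With the mouse as a replicate block it was 39 between sorts (7 higher, 32 lower) and 0 for the difference, and the genes it added were Col11a1 and Col22a1.

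Signs turned for Col1a2 in MSCs with quantile normalization (0.0385), Col4a2 in MSCs without G and H (-0.00498), Col14a1 in OBs with edgeR (0.16) and DESeq2 (0.15), Col4a1 and Col4a2 in OBs without E and F (-0.15 and -0.0296), and Col11a1, Col26a1 and Col27a1 between sorts with quantile normalization (0.74, 0.39 and 0.28). The cause was not tested. With 1 library left out the ranges that cross 0 were -0.0389 to 0.36 (Col4a1, MSCs), -0.0241 to 0.311 (Col4a2, MSCs), -0.929 to 0.194 (Col14a1, OBs), -0.0112 to 0.409 (Col4a1, OBs), -0.692 to 0.264 (Col26a1, between sorts), -0.213 to 0.283 (Col27a1, between sorts) and -0.604 to 0.476 (Col2a1, difference of genotype effects). Quantile normalization moved the median of all genes between sorts from 0.01 to 0.17. Of the other alternative values, 1366 kept direction and side of the threshold, 75 passed where the main one did not and 55 the reverse.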
